A study of Homo sapiens with 12 samples.

Results

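Aminoacyl-tRNA synthetases are the enzymes that join each amino acid to its transfer RNA, and the human genome encodes one set for the cytosol and another for mitochondria. The genes described here were chosen by name: 19 cytosolic and 16 mitochondrial synthetase genes, 35 in all, of which each probe set had to be annotated with exactly that 1 symbol. Of these, 32 had a probe set of their own, 17 cytosolic and 15 mitochondrial, and all 32 passed the filter on low values, among 10729 genes tested. MARS1 (methionine), QARS1 (glutamine) and TARS2 (mitochondrial threonine) lay only on probe sets whose annotation also names a microRNA gene, and no value is given for them.

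The samples were HK-2 cells, an immortalized line of human kidney proximal tubule epithelium, grown in medium with insulin, transferrin and EGF. Cells were exposed near confluence to Ota, a compound whose name the labels do not spell out, at what they call a high dose, with no amount given. The groups were Ota cells at 24 h, control cells at 24 h, Ota cells at 72 h and control cells at 72 h, and control cells received the vehicle. Each group had 3 arrays labelled as biological replicates of this 1 cell line, 12 in all, so every p-value below weighs a change against the spread among these arrays alone.

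In the cytosol, charged transfer RNAs feed ribosomes that make nearly all of the cell's proteins, and in mitochondria they feed the ribosomes that make the few respiratory chain subunits encoded by mitochondrial DNA. Cytosolic synthetases fall into class I and class II by the fold of the catalytic domain, and several of them sit with scaffold proteins in one large complex. GARS1 and KARS1 each give rise to both a cytosolic and a mitochondrial enzyme and are counted with the cytosolic set, while the mitochondrial enzymes are nuclear genes of their own. When transfer RNAs stay uncharged, the kinase GCN2 (gene EIF2AK4) phosphorylates the initiation factor eIF2, translation of the transcription factor ATF4 rises, and ATF4 is known to act on many cytosolic synthetase genes through C/EBP-ATF response elements.

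A part of the cytosolic genes carried such an element close to the start site, and those sites are printed here because all 6 of these genes rose with time in control cells. The motif TGATGNAA, which reads TTNCATCA on the other strand, was searched on both strands of RefSeq promoter windows (GRCh38.p14), from 250 bases before to 50 bases after each start. A window was held for 30 of the 35 genes, and LARS1, VARS1, YARS1, AARS2 and VARS2 are named only. The motif stood in the windows of 6 of the 14 measured cytosolic genes that had one (42.9%), of 1 of 13 measured mitochondrial genes (YARS2, 7.69%) and of 1217 of 27305 genes in the whole table (4.46%). MARS1, which has no value here, also held it. The sequences run 5′ to 3′ on the strand of the gene, with the motif in capitals.
AARS1, chr16:70289666-70289713, minus strand: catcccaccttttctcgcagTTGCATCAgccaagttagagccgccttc
CARS1, chr11:3057398-3057445, minus strand: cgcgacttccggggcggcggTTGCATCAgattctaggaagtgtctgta
GARS1, chr7:30594825-30594872, plus strand: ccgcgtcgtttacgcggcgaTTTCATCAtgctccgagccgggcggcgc
IARS1, chr9:92293683-92293730, minus strand: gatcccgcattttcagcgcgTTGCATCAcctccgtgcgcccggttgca
NARS1, chr18:57621795-57621842, minus strand: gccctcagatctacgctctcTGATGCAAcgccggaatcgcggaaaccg
TARS1, chr5:33440947-33440994, plus strand: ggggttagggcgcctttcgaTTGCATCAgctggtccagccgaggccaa
In CARS1, GARS1, IARS1, NARS1 and TARS1 the motif began within 33 bases of the start site, and in AARS1 it began 187 bases before it. A match describes the letters and is not a measured binding site.

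HARS1 and HARS2 share a promoter region, printed because both genes had lower values in Ota cells at 24 h. The cytosolic and the mitochondrial histidine enzyme are transcribed away from each other, and 84 bases lie between their start sites in these windows. The letters CCGGAAG, which read CTTCCGG on the other strand, occur at 2 places there and are in capitals. Of all genes in the table, 12.2% hold them on one strand or the other in a window of 300 bases, longer than this stretch.
HARS1 and HARS2, chr5:140691371-140691454, plus strand: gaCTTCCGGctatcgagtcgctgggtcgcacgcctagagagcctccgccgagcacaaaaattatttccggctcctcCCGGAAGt

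The arrays differed in ways that touch every count below. The median of the tested genes was 7.40 in Ota cells and 7.97 in control cells at 24 h, and 7.68 in Ota cells and 7.96 in control cells at 72 h. Spiked-in poly-A RNAs read higher in Ota cells, with log2 differences of 1.85 at 24 h and 0.89 at 72 h (two-sided exact permutation test, p = 0.1, the lowest value 3 arrays a group can give). For ACTB, 3′ probe sets over 5′ probe sets gave a log2 ratio that was higher in Ota cells by 0.05 at 24 h (exact p = 0.9) and by 0.58 at 72 h (exact p = 0.1). The same ratio for GAPDH was higher by 0.03 at 24 h (exact p = 0.3) and by 0.03 at 72 h (exact p = 0.7). The 18S ribosomal RNA signal was higher in Ota cells by 1.58 at 24 h and 1.34 at 72 h (exact p = 0.1 each). Of the marker genes listed for proximal tubule, 1 of 9 was over the filter (PAX8, with log2 changes with Ota of -2.53 at 24 h and -1.59 at 72 h, both passing), and GGT1 did not reach it although its highest array read 5.55. All 4 epithelial markers were over the filter. Among them KRT18 changed with Ota by -1.45 at 24 h and CDH1 by -3.18 at 72 h (adjusted p = 0.000176 and 1.95e-06 in limma), and KRT8 and EPCAM did not pass at either time. None of 4 endothelial and none of 4 leukocyte markers was, and 2 of 3 fibroblast markers were (LUM and DCN), of which LUM rose with Ota by 0.69 at 24 h and 1.55 at 72 h and DCN did not pass. With time in control cells LUM fell by 1.77 and DCN by 1.79. Part of these differences in scale can be carried into each gene's change, so calls that stood under every scaling tried are named as such. The part of RNA amount, of ribosomal RNA signal or of these marker genes in the results was not tested. In such bulk RNA, a change in every cell and a change in the share of cells that express a gene cannot be told apart.

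At 24 h most synthetase genes had lower values in Ota cells, and the mitochondrial set was lower almost throughout. A call means an adjusted p under 0.05 in limma over all 10729 genes. Among the 17 cytosolic genes, 3 rose, 9 fell and 5 did not pass, with a median log2 change of -0.44. Among the 15 mitochondrial genes none rose, 12 fell and 3 did not pass, with a median of -0.997. Over all tested genes 20.8% rose and 40.5% fell, with a median of -0.24, so the cytosolic share that fell (52.9%) lay nearer to that background than the mitochondrial share (80.0%). Centring each array on its median raised the all-gene median by 0.56 and gave 7 cytosolic genes higher and 5 lower, and 2 mitochondrial genes higher and 7 lower. Of all tested genes 43.4% were then higher and 26.7% lower. When arrays were scaled to the spiked-in RNAs instead, the all-gene median moved by -1.85, which gave 0 higher and 16 lower of the cytosolic genes, and 0 higher and 15 lower of the mitochondrial genes. Under that scaling 1.42% of all tested genes were higher and 93.5% lower, so these counts lay near the background. Relative to all genes, the cytosolic median stood at -0.20 and the mitochondrial median at -0.76, and with probe sets averaged per gene at 0.28 and -0.79. Centring and spike-in scaling shift a whole array alike and cannot alter these relative values. Under all 4 scalings, which include quantile normalization, AARS1, FARSA, FARSB, HARS1 and RARS1 of the cytosol were called lower. Of mitochondria AARS2, HARS2, LARS2, NARS2, PARS2 and YARS2 were. SARS2 was as well, but it passed the filter only through its control arrays. Since spike-in scaling moved every 24 h change down, standing under it says little for a lower call.

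**Figure D1:**
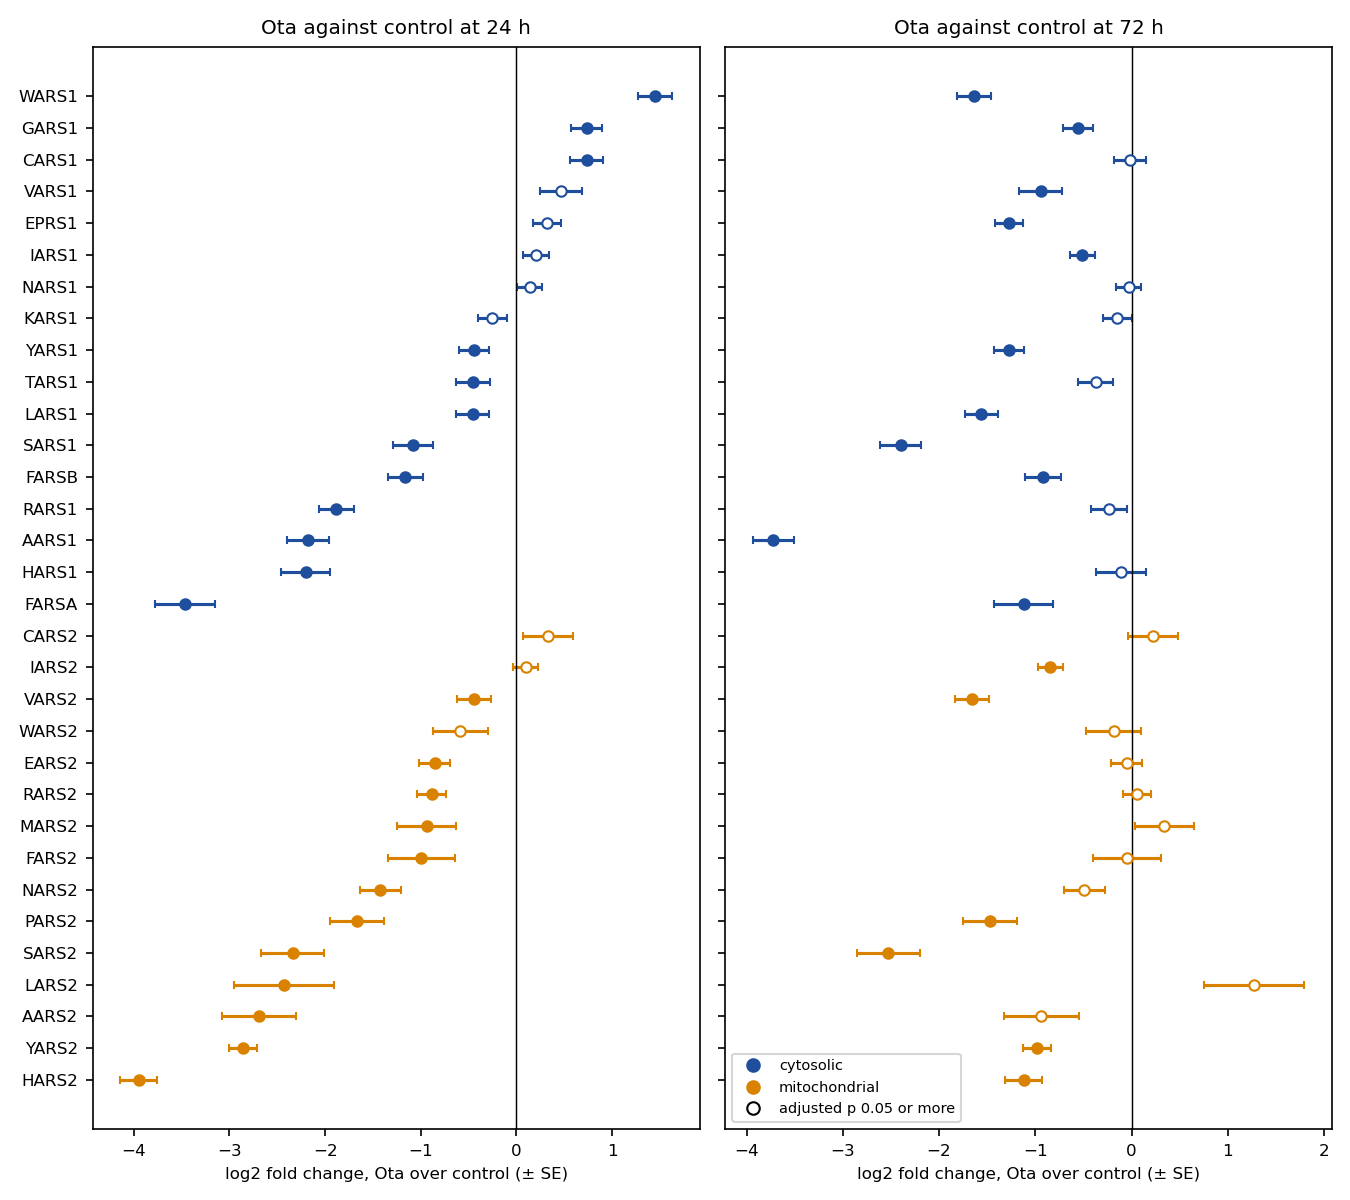
Log2 fold change of Ota over control cells (± SE) at 24 h (left) and 72 h (right) for the 32 measured synthetase genes, cytosolic in blue and mitochondrial in orange, with open circles where limma's adjusted p was 0.05 or more. At 24 h the points run from 1.45 for WARS1 to -3.95 for HARS2, and at 72 h no filled point lies above 0.

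Of the cytosolic genes at 24 h, FARSA, the catalytic subunit of the phenylalanine enzyme, had the largest decrease. It read 5.03, 5.04 and 4.99 in Ota cells, against 8.81, 8.29 and 8.36 in control cells. Its 3 Ota arrays lay close together and far below every control array. The log2 change was -3.46 ± 0.31 (SE; limma adjusted p = 2.22e-06), which is 0.0906 times the control level. The other subunit, FARSB, fell by 1.16 on its brightest probe set (SE 0.18), and a further probe set did not pass (0.40). Its dimmest probe set rose by 2.36, but its mean over the 12 arrays was 3.70, under 4, the value of the filter. It passed the filter through its higher arrays, so its rise was tied to how it entered and is not weighed against the fall.

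HARS1, the cytosolic histidine enzyme, read 7.16, 7.82 and 6.99 in Ota cells, against 9.54, 9.47 and 9.55 in control cells at 24 h. No Ota array reached the control range. Its change was -2.20 ± 0.26 (adjusted p = 1.74e-05). AARS1, the alanine enzyme, read 7.06, 7.49 and 6.67 in Ota cells, against 9.20, 9.51 and 9.04 in control cells. Here too the groups did not overlap, and the change was -2.18 ± 0.22 (adjusted p = 5.15e-06). RARS1, the arginine enzyme of the large complex, read 8.97, 8.71 and 9.48 in Ota cells, against 10.89, 10.86 and 11.05 in control cells. All Ota arrays of RARS1 were below all control arrays, and the change was -1.88 ± 0.19 (adjusted p = 5.00e-06).

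WARS1, the tryptophan enzyme, went the other way at 24 h. It read 10.77, 10.93 and 10.41 in Ota cells, against 9.33, 9.25 and 9.18 in control cells, with no overlap. Its change was 1.45 ± 0.18 (adjusted p = 2.59e-05), and its second probe set gave 1.22. GARS1, the glycine enzyme, read 11.20, 11.31 and 11.14 in Ota cells, against 10.67, 10.63 and 10.16 in control cells. The 3 Ota arrays were the highest, and the change was 0.73 ± 0.16 (adjusted p = 0.0019). CARS1, the cysteine enzyme, rose by the same amount, 0.73 ± 0.17 (adjusted p = 0.0025). None of these 3 increases held under scaling to the poly-A spike-ins, where WARS1 came to -0.40, GARS1 to -1.12 and CARS1 to -1.12. Without Ota replicate 3 at 24 h, 5 cytosolic genes were called higher in place of 3.

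Of the other cytosolic genes at 24 h, SARS1, the serine enzyme, fell by 1.09 (SE 0.21). YARS1 (tyrosine), TARS1 (threonine) and LARS1 (leucine) fell by 0.44, 0.46 and 0.46, and all 3 came out slightly above 0 after centring. LARS1 lost its call with the replicate number as a block (adjusted p = 0.0506) and when any of 4 single arrays was left out (-0.44 to -0.33), and another of its probe sets rose by 0.74. TARS1 lost its call when any of 9 arrays was left out and YARS1 when any of 3 was, with changes between -0.50 and -0.27 for TARS1 and between -0.41 and -0.38 for YARS1. VARS1 (valine, 0.46), EPRS1 (the fused glutamate and proline enzyme, 0.32), IARS1 (isoleucine, 0.21), NARS1 (asparagine, 0.14) and KARS1 (lysine, -0.25) did not pass. The other probe sets of EPRS1 did rise, by 0.43 and 0.49 (limma adjusted p = 0.018 and 0.024). By class, 1 of 9 class II genes rose and 6 fell, with a median of -1.09, while 2 of 7 class I genes rose and 3 fell, with a median of 0.21, and the difference between the classes was not tested.

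Of the mitochondrial genes at 24 h, HARS2, YARS2 and AARS2 had the largest decreases. HARS2, the histidine enzyme, read 3.69, 3.82 and 4.36 in Ota cells, against 7.78, 8.16 and 7.79 in control cells. The Ota mean of 3.96 lay under 4, the value of the filter, with 1 of 3 arrays over it, so the gene was at the edge of what was counted as measured there and the fold rests on a value near background. Its change was -3.95 ± 0.19 (adjusted p = 2.65e-08). YARS2, the tyrosine enzyme, read 5.49, 5.72 and 5.83 in Ota cells, against 8.54, 8.44 and 8.63 in control cells, again without overlap. That is a change of -2.86 ± 0.15 (adjusted p = 3.60e-08), or 0.138 times the control level. AARS2, the alanine enzyme, read 4.46, 5.45 and 3.70 in Ota cells, against 7.16, 7.36 and 7.17 in control cells. Ota arrays of AARS2 spread widely but all stayed below the controls, with a change of -2.69 ± 0.39 (adjusted p = 9.47e-05), while its second probe set gave -0.78 and did not pass.

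Among the other mitochondrial genes at 24 h, LARS2 (leucine), SARS2 (serine), PARS2 (proline) and NARS2 (asparagine) fell by 2.43, 2.34, 1.67 and 1.42. FARS2 (phenylalanine), MARS2 (methionine), RARS2 (arginine), EARS2 (glutamate) and VARS2 (valine) fell by 1.00, 0.94, 0.89, 0.86 and 0.45. The Ota mean of MARS2 was 4.11, near the filter value, with 2 of 3 arrays over it. FARS2 and MARS2 leaned on Ota replicate 2, without which they came to -0.51 and -0.55 and passed no longer, and both also lost their calls without control replicate 1 or 3. The second probe set of FARS2 gave -0.15 and did not pass. VARS2 lost its call when any of 10 arrays was left out and turned to 0.11 after centring. WARS2 (tryptophan, -0.59), IARS2 (isoleucine, 0.10) and CARS2 (cysteine, 0.33) did not pass. The second probe set of WARS2 fell by 0.85 (limma adjusted p = 0.032). SARS2 was over the filter through its control arrays only, as its Ota arrays read between 2.06 and 2.92 at both times. Its difference was thus set by how it entered, and without it 11 of 14 mitochondrial genes fell at 24 h (78.6%), with a median of -0.97.

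**Figure D2:**
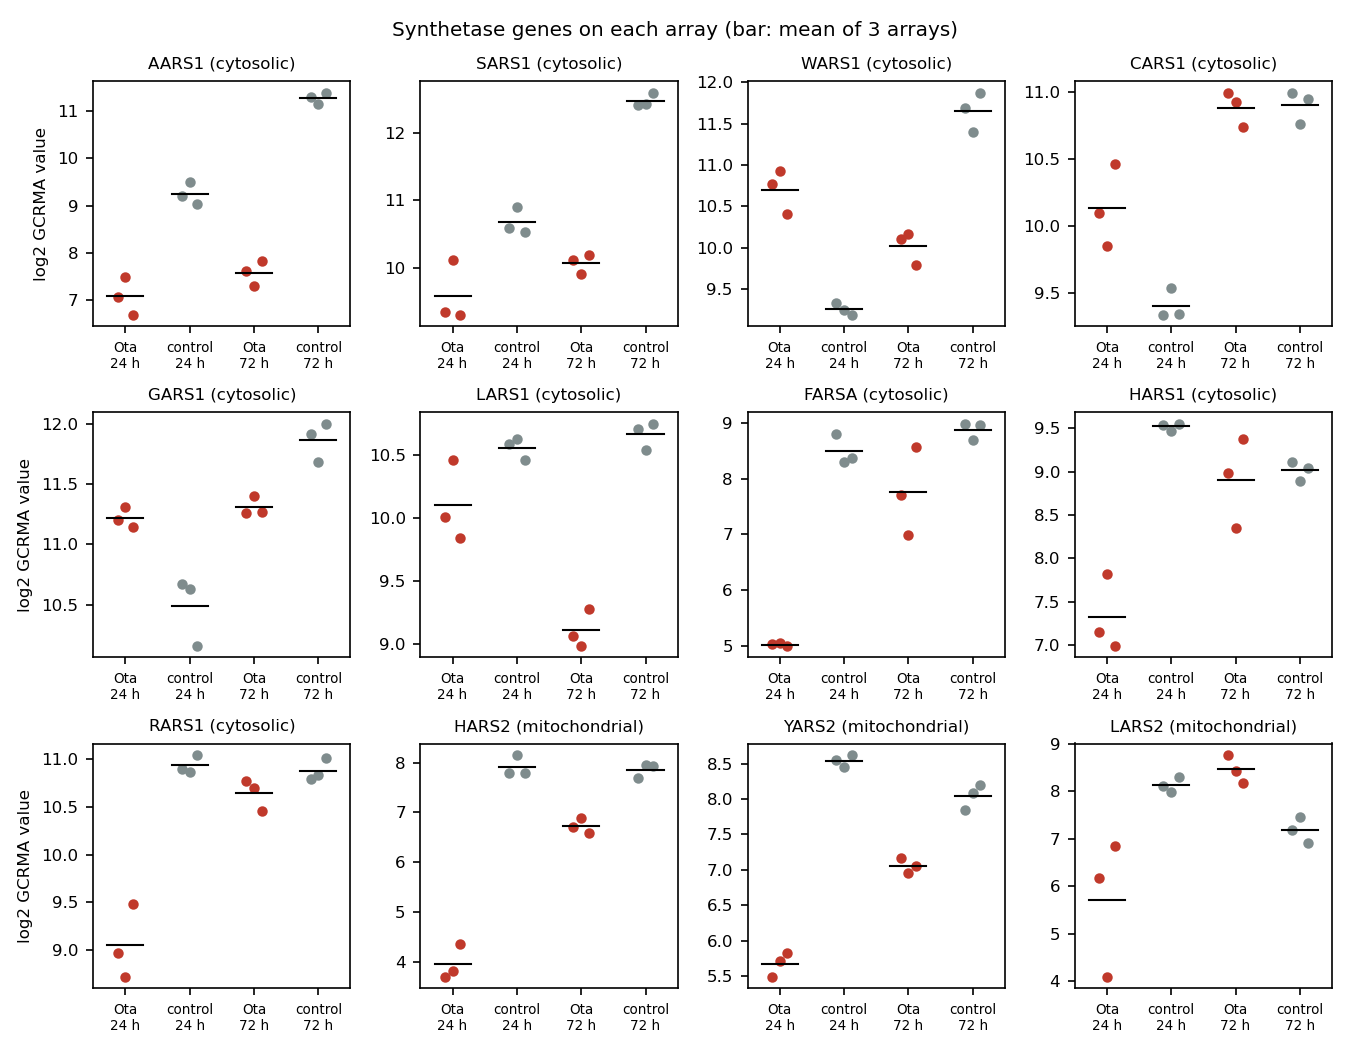
Log2 GCRMA values of 12 synthetase genes on each of the 12 arrays (points) with the mean of each group (bar), Ota cells in red left of control cells in grey, at 24 h and 72 h; each panel has its own scale. AARS1 and SARS1 lie below control cells at both times, WARS1 and GARS1 lie above control cells at 24 h and below them at 72 h, and FARSA, HARS1 and RARS1 are lower in Ota cells at 24 h than in the other 3 groups.

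At 72 h no synthetase gene of either compartment was called higher in Ota cells. Among the cytosolic genes 11 of 17 fell (64.7%), with a median of -0.92, and among the mitochondrial genes 6 of 15 fell (40.0%), with a median of -0.49. Without SARS2, whose Ota arrays were under the filter value, 5 of 14 mitochondrial genes fell (35.7%), with a median of -0.34. Of all tested genes 24.8% rose and 35.2% fell, with a median of -0.11, so the mitochondrial share that fell was near the background. Centring raised the all-gene median by 0.28 and left 9 cytosolic and 6 mitochondrial genes lower, with 2 mitochondrial genes higher. Spike-in scaling moved it by -0.89 and made all 17 cytosolic and 12 mitochondrial genes lower. Of all tested genes 35.5% were higher and 27.8% lower after centring, and 5.17% higher and 62.6% lower after spike-in scaling. Relative to all genes the cytosolic median stood at -0.81 and the mitochondrial median at -0.38, and with probe sets averaged at -0.47 and -0.40. AARS1, EPRS1, FARSA, FARSB, LARS1, SARS1, VARS1, WARS1 and YARS1 of the cytosol were called lower under all 4 scalings. Of mitochondria HARS2, IARS2, PARS2, VARS2 and YARS2 were. SARS2 was as well, through a difference set by how it passed the filter. Spike-in scaling moved every 72 h change down too, so standing under it says little for a lower call. Leaving out any 1 array took no call away from a synthetase gene in this comparison, although FARSA came to -0.74 without Ota replicate 2 at 72 h.

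AARS1 had the largest change at 72 h. It read 7.61, 7.29 and 7.82 in Ota cells, against 11.31, 11.16 and 11.40 in control cells. No array of one group came near the other, and control cells were higher at 72 h than at 24 h, while Ota cells overlapped between the times. The change was -3.72 ± 0.22 (adjusted p = 1.12e-07), which is 0.0759 times the control level. SARS1 read 10.12, 9.91 and 10.19 in Ota cells, against 12.41, 12.42 and 12.59 in control cells. Its groups did not overlap, the change was -2.40 ± 0.21 (adjusted p = 1.91e-06), and its second probe set gave -3.77.

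WARS1 stood below control cells at 72 h after standing above them at 24 h. Its values were 10.10, 10.16 and 9.79 in Ota cells, against 11.70, 11.40 and 11.88 in control cells. The change was -1.64 ± 0.18 (adjusted p = 1.01e-05), with -1.45 on its second probe set. LARS1 read 9.06, 8.98 and 9.27 in Ota cells, against 10.71, 10.54 and 10.75 in control cells. No array of one group reached the other, and the change was -1.56 ± 0.17 (adjusted p = 1.03e-05). All 4 probe sets of LARS1 over the filter were lower at 72 h, between -1.56 and -0.48.

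YARS1 and EPRS1 each fell by 1.27 at 72 h, FARSA by 1.12, VARS1 by 0.94, FARSB by 0.92, GARS1 by 0.56 and IARS1 by 0.51. For FARSB the dimmest probe set, whose mean was under the filter value, again rose, by 2.05, and a further one did not pass (-0.13). The second probe sets of VARS1 (-0.55) and YARS1 (-0.09) did not pass. TARS1 (-0.37), RARS1 (-0.24), KARS1 (-0.15), HARS1 (-0.11), NARS1 (-0.03) and CARS1 (-0.02) did not pass, of which HARS1 and RARS1 had been among the 4 deepest cytosolic decreases at 24 h. For HARS1 the SE was 0.26 at both times, so a change of moderate size at 72 h could not be seen. In the large complex 2 of 5 measured enzymes fell at 24 h, close to the 40.5% of all genes. At 72 h 3 of 5 fell (EPRS1, IARS1 and LARS1), against 35.2% of all genes.

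Of the mitochondrial genes at 72 h, SARS2 read 2.06, 2.11 and 2.70 in Ota cells, against 4.63, 4.95 and 4.87 in control cells. All 3 Ota arrays were under 4, so the change of -2.53 ± 0.33 (adjusted p = 4.13e-05) was set by how the gene passed the filter. VARS2 read 6.52, 6.33 and 6.24 in Ota cells, against 8.05, 7.97 and 8.03 in control cells. The control arrays lay within a narrow band and every Ota array was below it, with a change of -1.66 ± 0.18 (adjusted p = 9.26e-06). PARS2 read 5.45, 5.45 and 5.50 in Ota cells, against 6.51, 7.36 and 6.93 in control cells. Again the groups did not overlap, and the change was -1.47 ± 0.28 (adjusted p = 0.00076).

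HARS2, YARS2 and IARS2 fell by 1.12, 0.98 and 0.84 at 72 h. AARS2 (-0.94, adjusted p = 0.055) and NARS2 (-0.49, adjusted p = 0.068) lay below control cells on every array without passing. LARS2 lay above them on every array without passing (1.27, adjusted p = 0.053), although its second probe set rose by 0.82. EARS2, FARS2, MARS2, RARS2, CARS2 and WARS2 had changes between -0.18 and 0.34 and did not pass. For EARS2 its brightest probe set gave -0.05, while 2 other probe sets fell by 1.24 and 0.83. The one that fell by 0.83 had a mean of 3.63 over the 12 arrays, under the filter value.

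**Figure D3:**
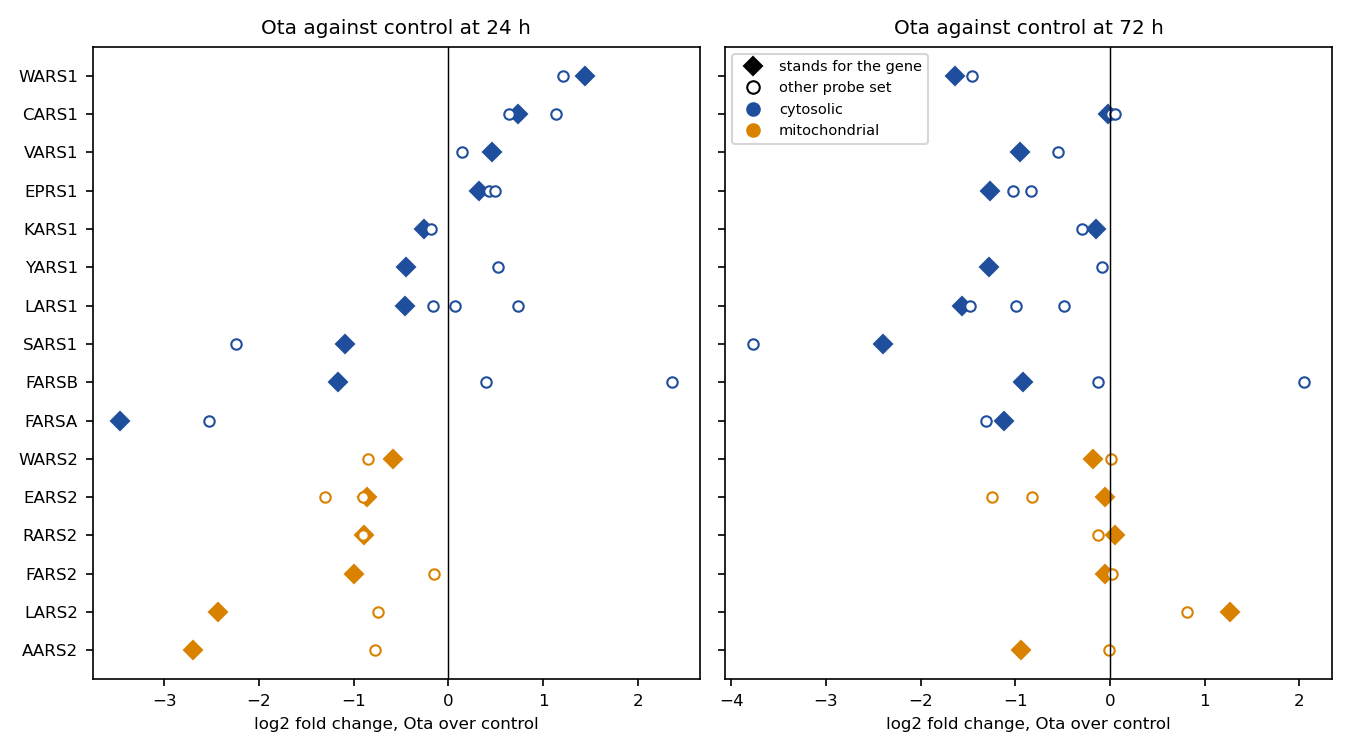
Log2 fold change of Ota over control cells at 24 h (left) and 72 h (right) for every probe set over the filter of the 16 synthetase genes with more than 1, the brightest one as a filled diamond and the others as open circles. Most genes keep their probe sets on one side of 0, and FARSB spans from -1.16 to 2.36 at 24 h. The value of 2.36 belongs to a probe set with a mean of 3.70 over the 12 arrays, under the filter value.

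The Ota effect at 72 h minus that at 24 h was then tested for each gene, and the compartments were not tested against each other. Among cytosolic genes the difference was called lower in 10 of 17 and higher in 3, with a median of -0.75. Among mitochondrial genes it was called higher in 8 of 15 and lower in 2, with a median of 0.93. Over all tested genes it was higher in 29.6% and lower in 19.9%, with a median of 0.17. Set against the all-gene median, the values were -0.92 for the cytosolic and 0.76 for the mitochondrial set, and -0.91 and 0.44 with probe sets averaged. Spike-in scaling, which moved the all-gene median by 0.96, put the medians of both sets above 0, at 0.21 and 1.89. It gave 5 cytosolic genes higher and 1 lower, and 11 mitochondrial genes higher and 0 lower, while 55.1% of all tested genes were higher and 4.88% lower. Quantile normalization gave 5 mitochondrial genes higher, against 26.0% of all tested genes, and leaving out Ota replicate 1 at 72 h also gave 5.

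LARS2 had the largest difference, 3.70 ± 0.74 (adjusted p = 0.0017). At 24 h it read 6.18, 4.08 and 6.84 in Ota cells, against 8.11, 7.98 and 8.30 in control cells. At 72 h it read 8.77, 8.43 and 8.18 in Ota cells, against 7.19, 7.46 and 6.91 in control cells. Ota arrays lay below controls at 24 h, with a wide spread (SD 1.44), and above them at 72 h. The second probe set of LARS2 had a smaller difference in the same direction, 1.56 (adjusted p = 0.008).

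WARS1 had the largest difference in the other direction, -3.09 ± 0.25 (adjusted p = 8.92e-06). HARS2 came next in size with 2.83 ± 0.27 (adjusted p = 1.77e-05), since it read 6.71, 6.90 and 6.59 in Ota cells at 72 h, against 7.68, 7.96 and 7.92 in control cells. Its deficit was smaller at 72 h than at 24 h, and the groups still did not overlap. FARSA, HARS1 and RARS1 were the 3 cytosolic genes with a higher difference, 2.34, 2.09 and 1.65, and these 3 calls stood under all 4 scalings. The second probe set of FARSA gave 1.22 and did not pass (limma adjusted p = 0.071). Of the 10 cytosolic genes with a lower difference only WARS1 kept its call under all 4. Spike-in scaling moved every difference up by 0.96, so under it higher calls were favoured and lower ones lost more easily.

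Change with time alone set the cytosolic and mitochondrial enzymes apart in control cells. At 72 h against 24 h, 10 of 17 cytosolic genes rose in control cells and none fell, with a median of 0.71. Of all tested genes 12.2% rose and 13.3% fell, with a median of 0.00. No mitochondrial gene rose and 2 of 15 fell (CARS2 by 0.89 and YARS2 by 0.50), with a median of -0.09, and each of these 2 calls was lost when any of 4 arrays was left out. AARS1, CARS1, GARS1, IARS1, SARS1, WARS1 and YARS1 rose under all 4 scalings, by between 0.93 and 2.40. EPRS1 (0.71), TARS1 (0.75) and NARS1 (0.50) rose without spike-in scaling, and NARS1 lost its call without replicate 1 of either time.

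WARS1 led this group with 2.40 ± 0.18 (adjusted p = 5.02e-06), and its control arrays at 72 h all lay more than 2 log2 units above those at 24 h. AARS1 rose by 2.04, SARS1 by 1.80, CARS1 by 1.50, YARS1 by 1.43 and GARS1 by 1.38 in control cells. FARSA, FARSB, HARS1, KARS1, LARS1, RARS1 and VARS1 did not change past the threshold in control cells, with values between -0.51 and 0.39. By the promoter windows, 6 of the 9 rising genes with a window held the motif printed above, and 0 of the 5 other cytosolic genes with a window did. That count is a description of few genes.

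In Ota cells both compartments had genes that rose and genes that fell with time. This comparison was added after the values had been seen. Between 24 h and 72 h in Ota cells, 7 cytosolic genes rose and 4 fell, with a median of 0.34 for the later over the earlier time, and 7 mitochondrial genes rose and 3 fell, with a median of 0.81. The background was 37.0% higher and 23.3% lower with a median of 0.18, so the cytosolic share that rose (41.2%) was close to it. Spike-in scaling gave 13 cytosolic genes higher and 1 lower, and 11 mitochondrial genes higher and 1 lower. Under that scaling 68.8% of all tested genes were higher and 6.59% lower, so these counts lay near the background. Centring gave 5 cytosolic genes higher and 4 lower, and 7 mitochondrial genes higher and 3 lower. Of the 10 cytosolic genes that rose in control cells, CARS1, NARS1, TARS1 and YARS1 also rose in Ota cells. WARS1 and EPRS1 fell there, by 0.68 and 0.88, and AARS1 (0.50), SARS1 (0.49), IARS1 (0.21) and GARS1 (0.09) did not pass. The deepest decreases in Ota cells were those of VARS1 (-1.79) and VARS2 (-1.55), the valine enzymes of both compartments, and both kept their calls under all 4 scalings. FARSA, HARS1 and RARS1, which did not change with time in control cells past the threshold, rose in Ota cells by 2.73, 1.58 and 1.59, and HARS2, LARS2 and MARS2 by 2.77, 2.76 and 1.83. At 24 h the Ota means of HARS2 (3.96) and MARS2 (4.11) lay near 4, the value of the filter, so their rises start near background.

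**Figure D4:**
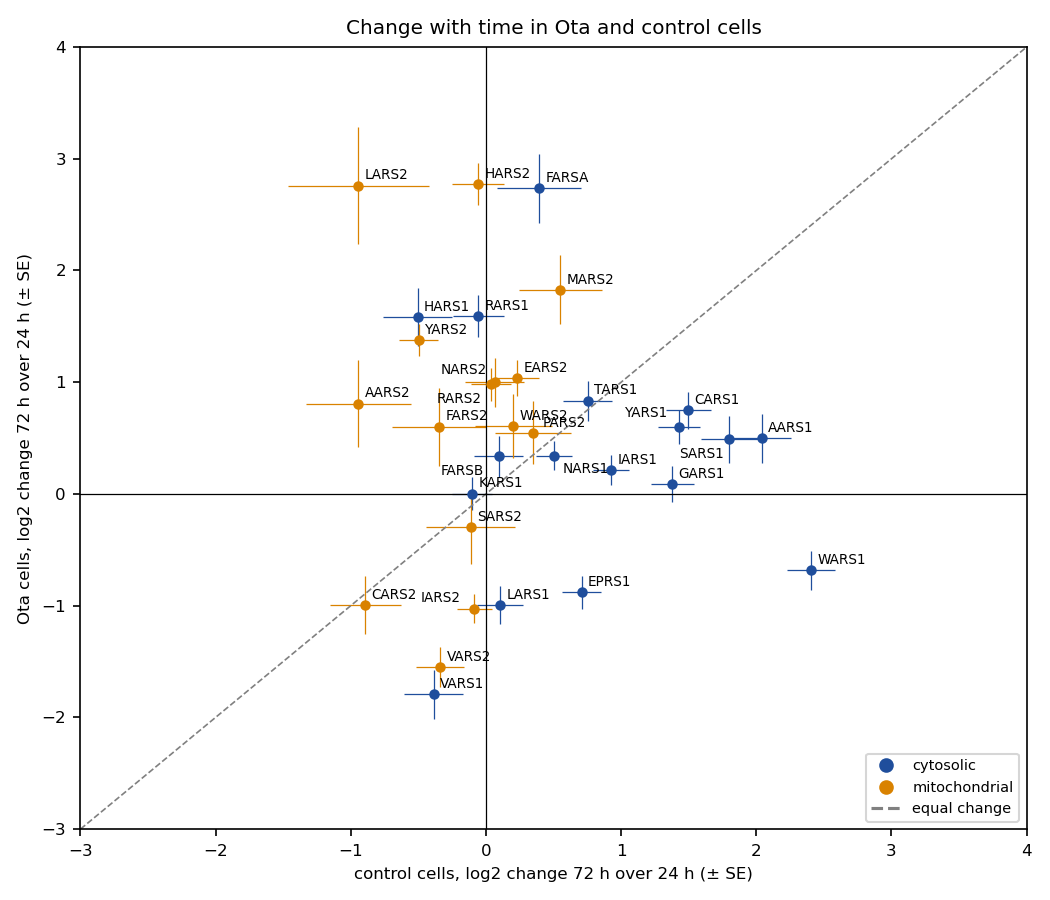
Log2 change of 72 h over 24 h in Ota cells (vertical, ± SE) against the same change in control cells (horizontal, ± SE) for the 32 synthetase genes, cytosolic in blue and mitochondrial in orange; the dashed line marks equal change. WARS1, AARS1, SARS1, GARS1 and YARS1 lie to the right and below the line, and LARS2, HARS2 and FARSA lie far above it.

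Of the cytosolic genes that fell with Ota at 72 h, 7 had risen with time in control cells (AARS1, EPRS1, GARS1, IARS1, SARS1, WARS1 and YARS1) and 4 had not changed there past the threshold (FARSA, FARSB, LARS1 and VARS1). Both comparisons use the same control arrays at 72 h, so a high control array enters both. No share over all tested genes is set beside the 7, which are not read as particular to the synthetases. Of the mitochondrial genes that fell at 72 h, HARS2, IARS2, PARS2 and VARS2 had not changed in control cells past the threshold. Nor had SARS2, but its fall was set by how it passed the filter.

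For the same amino acid, the gene of the cytosol and that of mitochondria often differed in size or direction. HARS1 and HARS2 both fell at 24 h, to log2 changes of -2.20 and -3.95, and only the change of HARS2 passed at 72 h. SARS1 fell at both times, and SARS2 is not set beside it because its Ota arrays were all under the filter value. AARS1 and AARS2 had like decreases at 24 h, -2.18 and -2.69, and came to -3.72 and -0.94 at 72 h. LARS1 came to -1.56 at 72 h, when LARS2 came to 1.27. WARS1 came to 1.45 at 24 h, when WARS2 came to -0.59. Neither CARS1 nor CARS2 had a decrease that passed at either time. These pairs are set side by side as changes, without a test of one gene against another.

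Genes that work beside the synthetases were counted in the same fit, to be read against 20.8% of all genes higher and 40.5% lower at 24 h, and 24.8% higher and 35.2% lower at 72 h. AIMP1, a scaffold protein of the large complex and the 1 of 3 scaffold genes measured, fell by 0.69 at 24 h and came to -0.02 at 72 h. Among other charging and proofreading factors 8 of 10 were measured, and 1 rose and 4 fell at 24 h, with a median of -1.33, a share lower near that of all genes. DTD2, which removes amino acids of the wrong handedness from transfer RNA, came to -3.20, with an Ota mean of 3.73 that lies under the filter value. GATC and QRSL1, subunits of the mitochondrial amidotransferase that makes glutaminyl-tRNA, came to -3.03 and -1.96, and MTFMT, which formylates the mitochondrial initiator, came to -1.97. GATB, a further subunit of the amidotransferase, came to 0.06 and did not pass. At 72 h 3 rose and 4 fell, with GATC at -2.17, PSTK, a kinase of the selenocysteine route, at 1.69, DTD1 at -1.56 and DTD2 at -1.41. MTFMT (0.92) and GATB (0.85) were the others that rose at 72 h, and QRSL1 (-0.67) was the other that fell.

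Transfer RNA maturation and export was represented by 11 of 13 genes, of which 1 rose and 6 fell at 24 h. At 72 h 4 rose and 4 fell, a share lower close to the 35.2% of all genes. TRNT1, which adds the CCA end that every synthetase needs on its substrate, fell at 24 h (adjusted p = 6.49e-09) and by 2.83 at 72 h (adjusted p = 5.71e-07). Its mean at 24 h was 3.03 in Ota cells and 8.37 in control cells, and all 3 Ota arrays were under the filter value, so the fitted change of -5.34 rests on a value near background. RTCB, the splicing ligase, fell by 1.47 and ELAC2, which trims the 3′ end, by 1.13 at 24 h, and CLP1, an RNA kinase, rose by 1.29 at 24 h and 1.82 at 72 h. NSUN2, a transfer RNA methyltransferase, rose by 1.68 at 72 h, and XPOT, the export receptor, fell by 1.64. Of the 4 genes that carry charged transfer RNA to the ribosome or start synthesis, 2 fell at each time. MTIF2, a mitochondrial initiation factor, fell by 1.25 at 24 h and 2.49 at 72 h, EIF5B fell by 1.18 at 24 h, and TUFM, the mitochondrial elongation factor, fell by 1.51 at 72 h.

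Most genes listed under uncharged transfer RNA sensing and its stress arm also rose with time in control cells, but the sensor EIF2AK4 did not. Of 12 genes, 9 rose with time in control cells and 1 fell, with a median of 1.57, against the 12.2% and 13.3% of all genes given above. EIF2AK4 (-0.35) and GCN1 (-0.60) did not pass, and EIF2S1 was the 1 that fell (-0.71). EIF2AK3, a different kinase of eIF2, was among the 9 that rose (1.32), so the count is not particular to uncharged transfer RNA. Which kinase acted was not tested. DDIT3, a stress transcription factor, rose by 5.02, ASNS, asparagine synthetase, by 2.75 and TRIB3, a pseudokinase, by 2.00. CHAC1, a glutathione-degrading enzyme, was over the filter value only in control cells at 72 h (mean 6.36), so its difference was set by how it entered. Without CHAC1, 8 of 11 rose and 1 fell, with a median of 1.50. With Ota at 72 h, 2 of the 12 rose and 7 fell, with a median of -0.79, and without CHAC1 2 of 11 rose and 6 fell, with a median of -0.73. The log2 changes were -3.97 for DDIT3, -2.68 for ASNS and -2.26 for ATF4 itself (adjusted p = 1.37e-07). At 24 h 3 rose and 5 fell, with TRIB3 at -1.71, CEBPB at -1.32, ATF4 at -1.06 and CEBPG at 0.97, and ASNS rose by 0.91. EIF2AK4, the sensor of uncharged transfer RNA, rose by 1.61 with Ota at 72 h, and EIF2S1, its substrate, by 1.49. GCN1 fell by 0.85 in that comparison. With time in Ota cells, 7 of the 12 rose and 2 fell, with a median of 0.69, against 37.0% and 23.3% of all genes. The changes with Ota at 72 h and with time in control cells both use the control arrays at 72 h. The arrays report RNA levels and hold no measure of charging, of translation or of eIF2 phosphorylation.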

How the data were processed

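RNA was hybridised to 12 Affymetrix arrays, 3 per group. The deposited table holds log2 values for 54675 probe sets made by the authors with GCRMA, per the submitters' processing notes; its version and other settings are not given in the sources used here. In its usual form GCRMA corrects background by probe sequence and quantile-normalizes arrays, which can hide a shift of all genes and leaves low values least certain. No detection calls were used, so precision is limited by the number of arrays.

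Of the probe sets, 41097 had 1 gene symbol in GEO's platform annotation, 1801 several and 11777 none; only the first were used. All 67 probe sets of the synthetase genes matched current symbols. A probe set entered with a value over 4 on at least 3 arrays, and the one with the highest mean stood for its gene. limma 3.58.1 in R 4.3.3 fitted 4 group means without covariates (8 residual degrees of freedom, prior 3.56; median SE of a change 0.21), with two-sided tests and Benjamini-Hochberg adjustment over 10729 genes. Values of other probe sets come from the same model fitted to all probe sets over the filter. The scripts were tested on simulated data. The members and gene lists were chosen with earlier results of these data known.

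Genes named were, per Ota comparison, the 4 cytosolic and 3 mitochondrial members with the largest called change, the 3 with the largest difference between times and the 2 cytosolic ones against the direction of most; of other lists, up to 4 called genes. ASNS at 24 h, GATB, MTFMT and QRSL1 at 72 h, EIF2AK3, EIF2AK4, EIF2S1 and GCN1 were named after their values were seen. So was GATB at 24 h. Same-numbered Ota and control arrays deviated together at 24 h (r = 0.12, 0.23 and 0.27), but not in every pair at 72 h (r = -0.05, 0.14 and 0.19); all values printed come from the fit without a block unless one is named. Counts without SARS2 or CHAC1 were chosen after seeing the values. Alternatives were other scalings, filters, probe set rules, variance models, thresholds, a block on replicate number and leaving out each array. Sequences come from RefSeq promoter windows of GRCh38.p14.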

Additional observations from a re-analysis of the deposited data

Results flagged for a closer look

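The Ota effect differed between 72 h and 24 h (limma, interaction contrast, adjusted p under 0.05) for 23 synthetase genes, each given as the log2 difference of the 72 h effect minus the 24 h effect. Among cytosolic genes the differences were -3.09 for WARS1, -1.59 for EPRS1, -1.54 for AARS1, -1.41 for VARS1, -1.31 for SARS1, -1.29 for GARS1, -1.10 for LARS1, -0.83 for YARS1, -0.75 for CARS1 and -0.72 for IARS1. They were 2.34 for FARSA, 2.09 for HARS1 and 1.65 for RARS1. Among mitochondrial genes the differences were 3.70 for LARS2, 2.83 for HARS2, 1.88 for YARS2, 1.75 for AARS2, 1.28 for MARS2, 0.94 for RARS2, 0.93 for NARS2 and 0.81 for EARS2. They were -1.21 for VARS2 and -0.94 for IARS2. MARS2 and NARS2 each lost this call when any of 5 arrays was left out, AARS2 when any of 2 was and CARS1 without control replicate 1 at 72 h. With quantile normalization AARS2, EARS2 and NARS2 were not called. Where a called gene had other probe sets over the filter, those of EPRS1, WARS1, LARS2 and RARS2 also passed. None passed for EARS2 (0.05 and 0.07), AARS2 (0.77), CARS1 (-0.62 and -1.09), VARS1 (-0.70), SARS1 (-1.54), YARS1 (-0.62) or FARSA (1.22). For LARS1, probe sets at -1.56 and -1.22 passed and 1 at -0.83 did not. With 3 arrays a group, no single array was tested as standing apart.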

How the results depend on the processing

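For Ota against control at 24 h, the cytosolic genes called lower numbered 9, with 5 after centring, 16 after spike-in scaling and 6 to 9 with 1 array left out. Those called higher numbered 3, with 7 after centring, 0 after spike-in scaling, 3 to 5 with 1 array left out and 1 at a log2 change of at least 1. Mitochondrial genes called lower numbered 12, with 7 after centring, 7 at a log2 change of at least 1 and 9 to 12 with 1 array left out. At 72 h the cytosolic count of 11 became 17 after spike-in scaling, 7 at a log2 change of at least 1 and 11 to 12 with 1 array left out, and the mitochondrial count of 6 became 12 after spike-in scaling and 6 to 8 with 1 array left out. Of the differences between times, the 10 cytosolic lower calls became 1 after spike-in scaling and 9 to 10 with 1 array left out. The 8 mitochondrial higher calls became 5 after quantile normalization, 5 without a filter, 4 at an adjusted p under 0.01, 5 at a log2 change of at least 1 and 5 to 9 with 1 array left out. The 10 cytosolic increases in control cells became 6 at a log2 change of at least 1 and 9 to 10 with 1 array left out. The cause was not tested, except that stricter thresholds call fewer genes by construction and spike-in scaling shifts every gene of a comparison alike.

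Directions turned after spike-in scaling at 24 h for CARS1 (-1.12), EPRS1 (-1.53), GARS1 (-1.12), IARS1 (-1.64), NARS1 (-1.71), VARS1 (-1.39), WARS1 (-0.40), CARS2 (-1.52) and IARS2 (-1.75), at 72 h for RARS2 (-0.83), in the difference for CARS1 (0.21), IARS1 (0.24), YARS1 (0.13) and IARS2 (0.021), and with time in Ota cells, a comparison chosen after seeing the data, for EPRS1 (0.043) and WARS1 (0.24). After centring they turned at 24 h for LARS1 (0.10), TARS1 (0.11), YARS1 (0.12) and VARS2 (0.11). With probe sets averaged they turned at 24 h for FARSB (0.53), LARS1 (0.047) and YARS1 (0.043) and at 72 h for FARSB (0.34). With probe sets of shared design (names ending in x_at or s_at) left out, they turned for FARSB at 24 h (2.36) and 72 h (2.05) and for YARS1 at 24 h (0.53) and with time in Ota cells (-0.31). All turns of FARSB draw on its dimmest probe set, which had a mean of 3.70 over the 12 arrays, under the filter value. With the replicate block LARS1 lost its call at 24 h (-0.46, adjusted p = 0.0506), leaving 8 cytosolic genes lower, and NARS1 its increase in Ota cells (0.34, adjusted p = 0.0527), while NARS2 gained a call at 72 h (-0.49, adjusted p = 0.0288) and PARS2 one with time in Ota cells (0.55, adjusted p = 0.0379); it changed no other call of a synthetase gene. Values near or under 4, as in SARS2 and in HARS2, MARS2 and AARS2 of Ota cells at 24 h, carry the least certain fold changes.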
